A study of Mus musculus with 4 samples.

Results

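BMP and TGF-beta signalling was described through 45 genes, chosen by name from a list of ligands, receptors, Smads, Id targets and antagonists, out of 53379 genes in the count table. The list held 9 ligands and ligand subunits, 3 latent TGF-beta binding proteins, 5 secreted antagonists, 11 receptors and co-receptors, 6 signalling Smads, 7 intracellular and membrane inhibitors and the 4 Id genes. All 45 passed the filter on low counts, as did 18838 genes in all, and each of the 45 had at least 12 counts in every library. The libraries were 2 of Npas3-/- and 2 of WT cortical astrocytes of the C57BL/6 strain. Npas3, which belongs to the bHLH-PAS transcription factors, acts in the developing brain, and the comparison asks how astrocyte transcripts differ where it is labelled as deleted. In both genotypes the cells were grown from cortex of newborn (P0) mice in medium with 10% serum, shaken daily over 7 days to shed other cells, replated and lysed at day 14 in vitro (DIV 14). How the Npas3 allele was made is not stated in the labels, nor do they tell whether libraries of the same genotype stem from different mice or cultures. P-values therefore reflect spread among these libraries, which may be technical.

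Ligands of this family bind pairs of type I and type II receptor kinases at the cell surface. BMP receptors phosphorylate Smad1, Smad5 and Smad9, whereas TGF-beta and activin receptors phosphorylate Smad2 and Smad3, and both branches share Smad4. The Id genes are direct targets of the BMP branch, and their products bind bHLH transcription factors and keep them off DNA. In the brain, BMP signalling promotes astrocyte fate and Gfap expression, and TGF-beta acts in astrocyte maturation and in the reactive state.

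The Id genes moved in opposite directions within their family, and the promoter windows of 3 of them are given for that reason. Id2 was lower in Npas3-/-, Id3 was the gene with the highest level per length, and Id4 differed only after the correction described below. The sequences are RefSeq windows on GRCm38.p6 (the mm10 build) from 250 bases before to 50 bases after the annotated start, written 5′ to 3′ on the gene's strand, with capitals at matches to the motifs GGCGCC and CAGAC, which reads as GTCTG on the other strand, both bound by Smad proteins.
Id2 (chr12:25096043-25096342, minus strand): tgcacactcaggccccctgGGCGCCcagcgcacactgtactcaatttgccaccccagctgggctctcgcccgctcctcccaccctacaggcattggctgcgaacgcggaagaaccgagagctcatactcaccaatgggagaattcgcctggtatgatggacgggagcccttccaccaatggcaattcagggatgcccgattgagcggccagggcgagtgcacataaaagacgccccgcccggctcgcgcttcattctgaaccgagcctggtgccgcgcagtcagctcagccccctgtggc
Id3 (chr4:136143572-136143871, plus strand): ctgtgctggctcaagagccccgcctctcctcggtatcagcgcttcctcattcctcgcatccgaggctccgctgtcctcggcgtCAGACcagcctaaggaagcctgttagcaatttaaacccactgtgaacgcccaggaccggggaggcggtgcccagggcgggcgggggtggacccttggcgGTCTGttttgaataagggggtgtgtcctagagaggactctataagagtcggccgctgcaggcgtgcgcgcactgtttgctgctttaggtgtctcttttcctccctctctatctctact
Id4 (chr13:48260866-48261165, plus strand): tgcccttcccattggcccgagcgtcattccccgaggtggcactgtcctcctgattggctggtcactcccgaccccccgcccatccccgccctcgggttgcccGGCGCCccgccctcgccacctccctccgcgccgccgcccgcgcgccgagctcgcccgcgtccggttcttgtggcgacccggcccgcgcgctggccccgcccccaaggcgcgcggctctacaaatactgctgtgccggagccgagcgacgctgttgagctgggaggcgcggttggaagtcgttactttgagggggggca
Counted from the first base of each window, Id2 had GGCGCC at position 20 and Id4 at position 103, and neither had CAGAC on either strand. Id3 had no GGCGCC and had CAGAC or its reverse complement at positions 84 and 183. No match overlapped another in these windows. GGCGCC was found in 15 of 41 windows of 33 of the 45 genes (36.6%), beside 11.9% of all 32851 windows of this length. This motif consists of G and C only, and the shares were not compared at equal GC content of the windows. CAGAC was found on either strand in 46.3% of the windows of the 45 genes and in 49.6% of all windows. ACGTG, a core found in bHLH-PAS binding sites, was in 19.5% of the windows of these genes, against 19.6% of all windows, and in none of the Id windows shown. The motif matches are descriptions of the sequence, not binding sites.

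The libraries had total counts between 82965565 and 86932708. Npas3 had 24.8 and 18.0 CPM (counts scaled to a common library size after TMM normalization) in the Npas3-/- libraries, against 57.8 and 93.4 CPM in WT (log2 fold change -1.82, SE 0.33, adjusted p = 0.0181). With the correction described below it had 32.8 and 30.6 CPM in Npas3-/-, against 41.1 and 58.5 CPM in WT, and was no longer called (log2 fold change -0.65, SE 0.21, adjusted p = 0.111). Its transcript was thus still counted in the libraries labelled Npas3-/-, and counts over whole genes do not show a loss of single exons. All 12 astrocyte markers on the list were tested, with a summed level of 8654 and 8909 CPM in Npas3-/- and 4939 and 6190 CPM in WT, 3 of them called higher and 3 lower without the correction and 4 higher and 2 lower with it. Fold changes across the transcriptome followed transcript GC content, with a Spearman's rho of 0.730 over 14356 genes with a mean of at least 1 CPM. Libraries of the same genotype also differed along this gradient (rho 0.535 for WT replicate 1 over 2, 0.359 for Npas3-/- replicate 2 over 1). The tests were therefore run in 2 fits of edgeR's quasi-likelihood test, adjusted by Benjamini-Hochberg over all 18838 genes, uncorrected and corrected for transcript GC content and length. A genotype difference that follows GC content is removed by the correction too, and it cannot be told apart from the gradient itself.

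Without the correction, 7 of the 45 genes were higher in Npas3-/- and 13 were lower at an adjusted p below 0.05. Over all tested genes 11.6% were called higher and 21.5% lower, so that the members stood at 15.6% and 28.9%. The genes called higher were Tgfb1, Ltbp3, Nbl1, Smad6, Bambi, Id1 and Id3. Those called lower were Inhba, Twsg1, Bmpr1a, Bmpr1b, Bmpr2, Acvr2a, Tgfbr1, Smad2, Smad5, Smad9, Skil, Smurf2 and Id2. With the correction, 3 were higher (Ltbp3, Bambi and Id4) and 4 were lower (Bmp6, Twsg1, Smurf2 and Id2), beside 4.56% and 3.80% of all genes. In both fits Ltbp3 and Bambi were called higher and Twsg1, Smurf2 and Id2 lower, where 1.89% and 3.41% of all genes were called in the same direction by both. The median log2 fold change of the 45 genes was -0.30 uncorrected and 0.02 corrected, against -0.07 and -0.03 for all tested genes. Uncorrected CPM of the genotypes did not overlap for 37 members, 13 higher and 24 lower in Npas3-/-, beside 75.8% of all tested genes. The number of calls changed when a library was left out. This leaves a lone library of its genotype, so lower power and dependence on the library left out cannot be told apart. Without Npas3-/- replicate 2 no gene of 20315 tested was called in either fit, with smallest adjusted p-values of 0.0798 uncorrected and 0.0652 corrected. In that uncorrected fit all 20 members called with all libraries kept their direction. In that corrected fit 17 of these 20 had it, beside 16 in the corrected fit of all 4 libraries. Without Npas3-/- replicate 1 the uncorrected fit called 0 higher and 8 lower and the corrected fit called 0 of 20420 genes, with 4530 of them at an unadjusted p below 0.05. The members at that level were 20 uncorrected and 11 corrected. Without WT replicate 2 the uncorrected fit called 1 higher and 11 lower, and the corrected fit 1 each way. Without WT replicate 1 the corrected fit did not call the same genes as with it. With each library left out in turn, corrected log2 fold changes ran from 0.63 to 0.71 for Ltbp3 and from 2.59 to 3.74 for Bambi. They ran from -1.03 to -0.67 for Twsg1, from -1.07 to -0.98 for Smurf2 and from -1.65 to -0.95 for Id2.

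**Figure D1:**
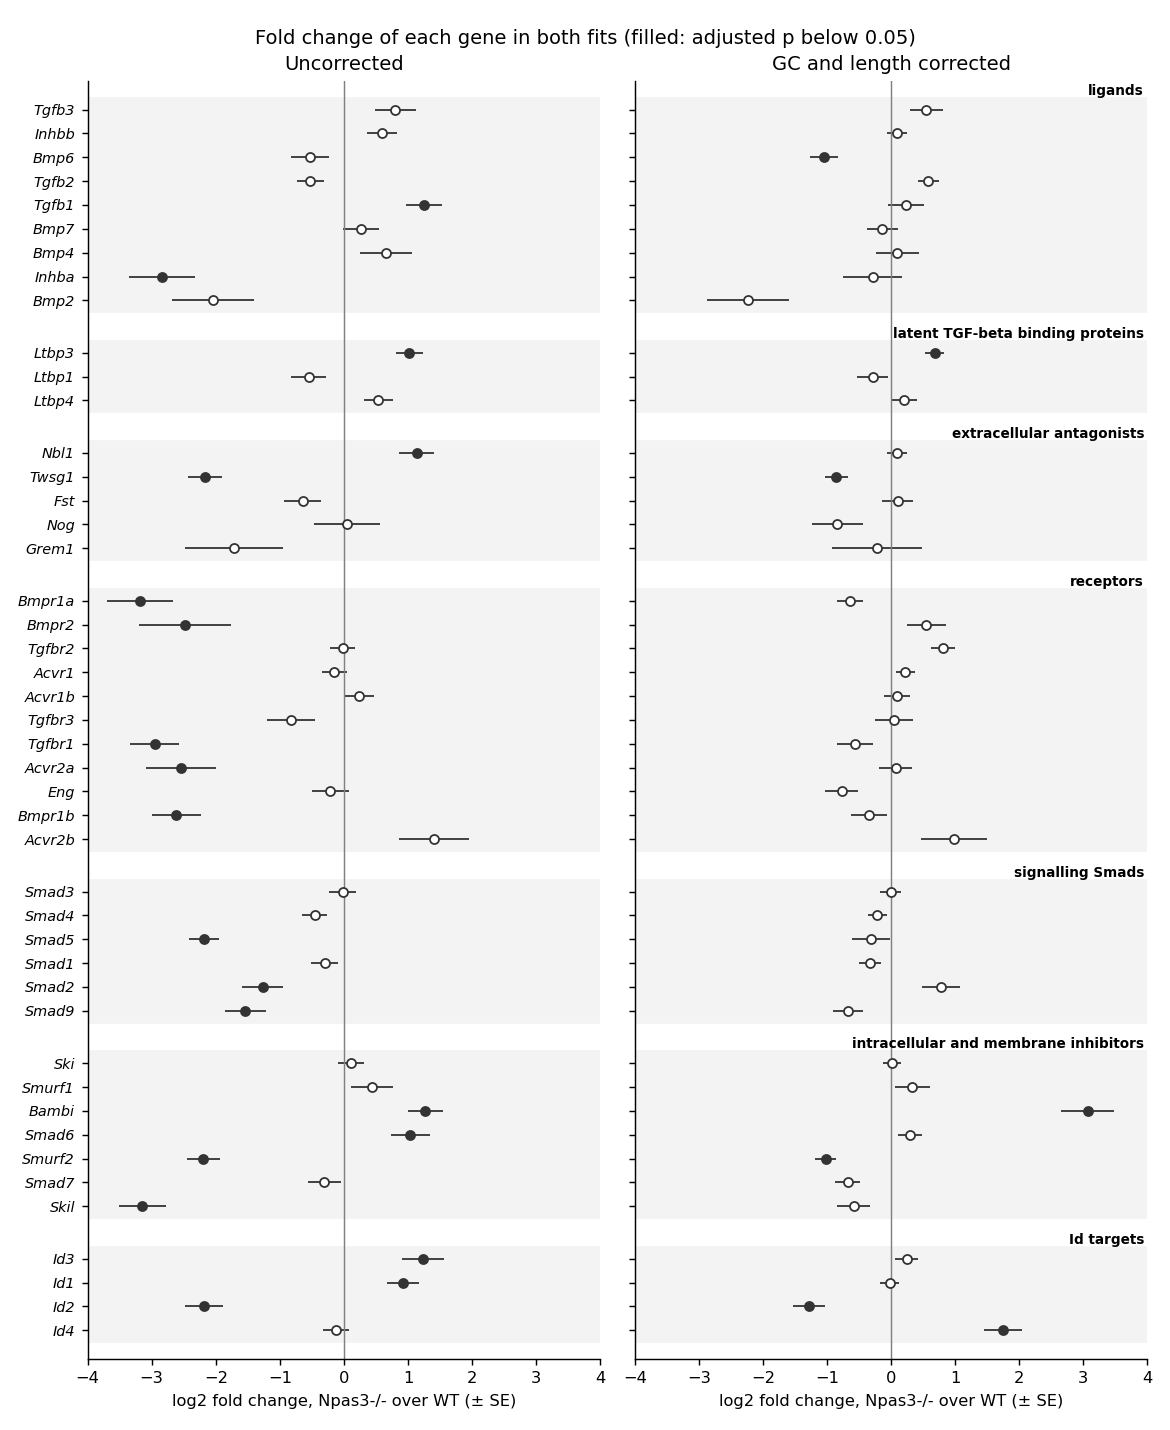
Log2 fold change of Npas3-/- over WT (x axis) with its SE for each of the 45 genes, grouped by role, in the uncorrected fit (left) and the fit corrected for GC content and length (right). Filled points passed an adjusted p of 0.05, and none of the receptors and signalling Smads is filled on the right, while Bambi moves to 3.07 and Id4 to 1.75.

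The members' fold changes ordered by composition as those of other genes did. Across the 45 genes the log2 fold change had a Spearman's rho of 0.762 with transcript GC content and of -0.551 with transcript length, and after correction the rho with GC content was 0.113. Genes are not independent replicates here, and all share the same 4 libraries. Of 14 members under 46% GC, 11 were called lower and 1, Bambi, higher without correction. All tested genes under 46% GC numbered 5053, of which 2699 were called lower and 49 higher. Of 18 members with at least 53% GC, 6 were called higher and 0 lower, beside 1600 and 93 of 6691 tested genes. The 13 members between these bounds gave 0 higher and 2 lower calls, beside 537 and 1249 of 7073 tested genes. The bounds were chosen after the values were seen. The ratio of the WT libraries, replicate 2 over 1, fell with GC content too, with a rho of -0.590 across the members.

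**Figure D2:**
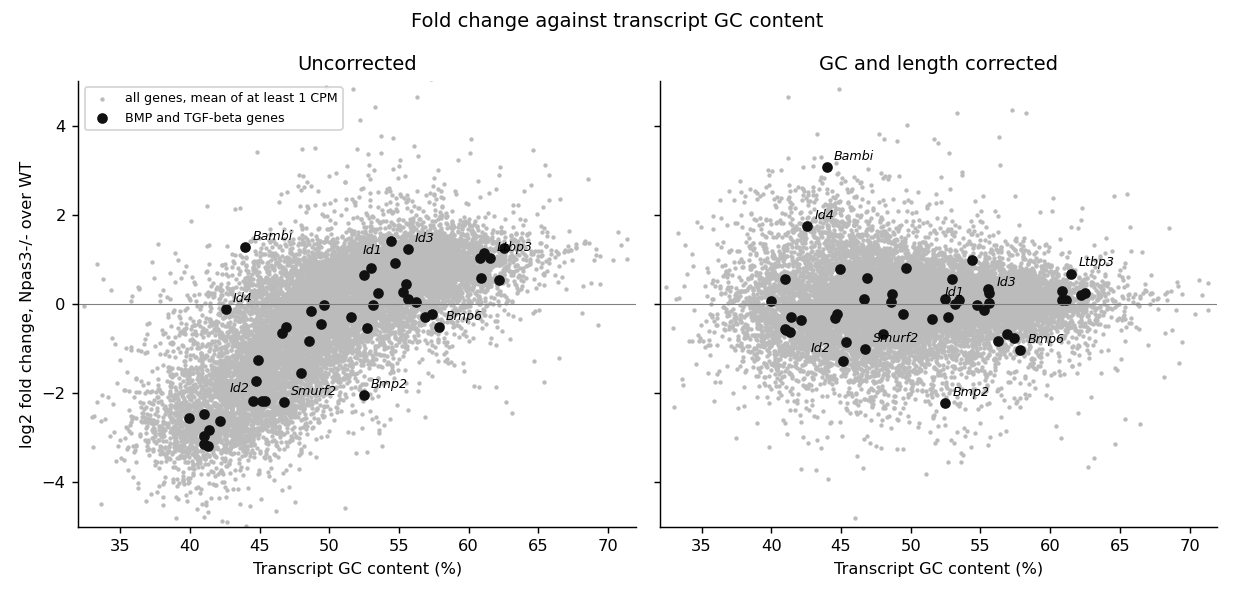
Log2 fold change of Npas3-/- over WT (y axis) against transcript GC content in percent (x axis), uncorrected (left) and corrected for GC content and length (right), with grey points for all genes of at least 1 CPM on average and black points for the 45 genes. Genes beyond a log2 fold change of 5 either way lie outside the axes. Bambi and Id4 stand above most genes of their GC content in the left panel, and Bmp2 below.

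Among the ligands 1 of 9 was called higher and 1 lower without correction, and 0 higher and 1 lower with it. Each single call is 11.1% of the ligands. Of all tested genes, 11.6% were called higher and 21.5% lower uncorrected, and 4.56% and 3.80% corrected. Tgfb3, a TGF-beta isoform, had the highest level per length of the ligands, at 54.6 CPM per kb in Npas3-/- and 31.3 CPM per kb in WT on average. It had 195 and 174 CPM in Npas3-/-, against 136 and 75.3 CPM in WT. The genotypes did not overlap, but the difference was not past the threshold (log2 fold change 0.80, SE 0.32, adjusted p = 0.102, and 0.55, adjusted p = 0.221, corrected). Tgfb1, the isoform best known from injury and immune cells, had 18.8 and 22.6 CPM in Npas3-/-, against 7.80 and 9.51 CPM in WT. Both Npas3-/- libraries were above both WT libraries (log2 fold change 1.26, SE 0.28, adjusted p = 0.0272). Corrected, Tgfb1 had 15.3 and 14.0 CPM in Npas3-/- and 9.63 and 15.3 CPM in WT, which overlapped (log2 fold change 0.23, adjusted p = 0.631). Inhba, which encodes the activin A subunit, had 0.483 and 0.675 CPM in Npas3-/-, against 2.98 and 5.31 CPM in WT. It was lower without correction (log2 fold change -2.84, SE 0.51, adjusted p = 0.0186) but not with it (-0.29, adjusted p = 0.720).

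Bmp6 encodes a BMP ligand and was called only in the corrected fit. It had 37.2 and 38.0 CPM in Npas3-/-, against 67.7 and 40.7 CPM in WT, so that WT replicate 2 stood near the Npas3-/- libraries (log2 fold change -0.53, SE 0.29, adjusted p = 0.210). On the corrected scale it had 32.1 and 30.3 CPM in Npas3-/- and 75.3 and 53.4 CPM in WT (log2 fold change -1.04, SE 0.21, adjusted p = 0.0430). Its exons overlap Txndc5 on the other strand, and without a stated strand setting reads of the pair cannot be told apart. Bmp2, another BMP ligand, was scarce, with 0.290 and 0.740 CPM in Npas3-/- and 1.75 and 2.51 CPM in WT. Its log2 fold change was -2.05 (adjusted p = 0.0587) uncorrected and -2.23 (adjusted p = 0.0848) corrected, past the threshold in neither fit. The other 4 ligands, Bmp4, Bmp7, Tgfb2 and Inhbb, had log2 fold changes between -0.53 and 0.65 and adjusted p-values from 0.103 to 0.483. Corrected, their adjusted p-values ran from 0.0852 to 0.875. Of these, Tgfb2 changed sign with the correction, from -0.53 to 0.58, and Bmp7 from 0.27 to -0.14.

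Latent TGF-beta binding proteins hold the secreted ligand in the extracellular matrix. Ltbp3 (ENSMUSG00000024940.10, in mm10 coordinates of GENCODE, here and below, chromosome 19, 5740904 to 5758532, plus strand) was the most abundant of the 3 per length, at 145 CPM per kb in Npas3-/- and 71.3 CPM per kb in WT. It had 713 and 791 CPM in Npas3-/-, against 395 and 346 CPM in WT. The libraries of each genotype lay close together and the genotypes did not overlap (log2 fold change 1.02, SE 0.21, adjusted p = 0.0233). Corrected, it had 648 and 686 CPM in Npas3-/- and 415 and 418 CPM in WT, and was still called higher (log2 fold change 0.68, SE 0.14, adjusted p = 0.0453). Ltbp1 and Ltbp4 had log2 fold changes of -0.55 (adjusted p = 0.169) and 0.54 (adjusted p = 0.116), and of -0.29 (adjusted p = 0.494) and 0.21 (adjusted p = 0.532) corrected.

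The secreted antagonists moved apart. Nbl1, which encodes a BMP antagonist also known as DAN, was the most abundant per length. It had 174 and 218 CPM in Npas3-/-, against 107 and 71.0 CPM in WT (log2 fold change 1.14, SE 0.27, adjusted p = 0.0323). Corrected, the genotypes overlapped, at 138 and 131 CPM in Npas3-/- and 136 and 117 CPM in WT (log2 fold change 0.09, adjusted p = 0.740). Twsg1 (ENSMUSG00000024098.5, chromosome 17, 65921972 to 65951226, minus strand) encodes Twisted gastrulation, which binds BMPs together with chordin. It had 34.6 and 23.2 CPM in Npas3-/-, against 123 and 137 CPM in WT. The Npas3-/- level was 22.2% of the WT level (log2 fold change -2.17, SE 0.27, adjusted p = 0.0130). Corrected, Twsg1 had 50.9 and 39.7 CPM in Npas3-/- and 84.8 and 79.2 CPM in WT, a smaller fall that was called too (log2 fold change -0.86, SE 0.18, adjusted p = 0.0444). With the correction fitted on all tested genes instead, Twsg1 missed the threshold (log2 fold change -0.79, adjusted p = 0.0558). Noggin (Nog), gremlin (Grem1) and follistatin (Fst) were called in neither fit, with adjusted p-values from 0.134 to 0.949 uncorrected and from 0.228 to 0.869 corrected.

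**Figure D3:**
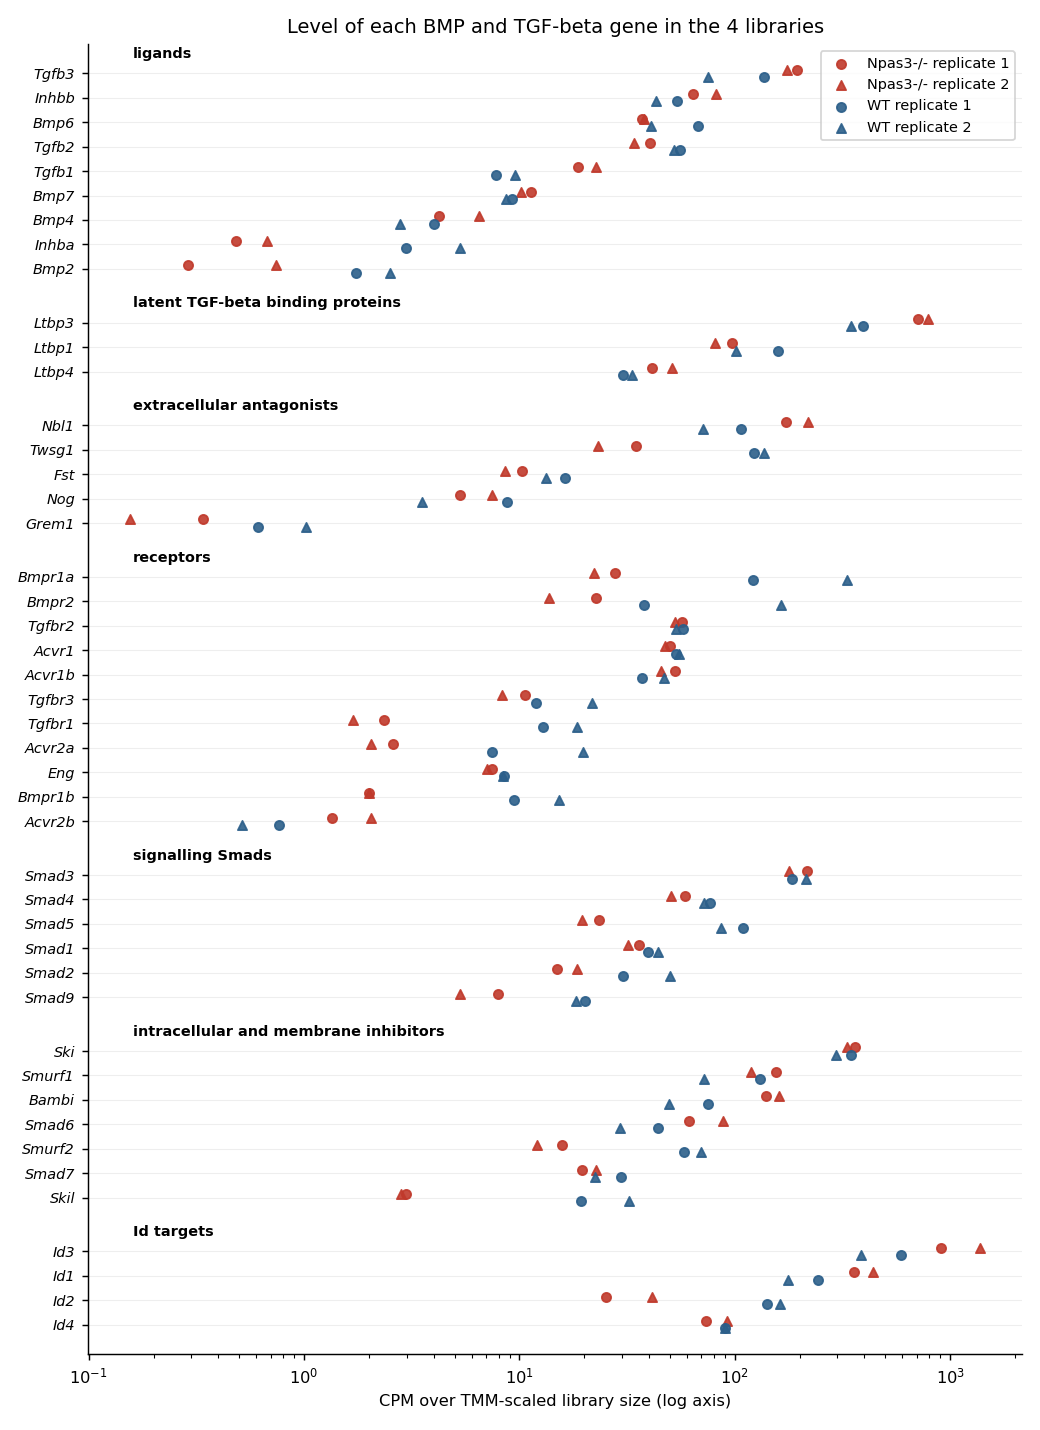
Level of each of the 45 genes in the 4 libraries, in CPM over TMM-scaled library size on a log axis, grouped by role and ordered within a role by mean CPM. Red marks Npas3-/- and blue WT, with circles for replicate 1 and triangles for replicate 2. Id3, Ltbp3 and Bambi lie to the right in Npas3-/-, and Id2, Twsg1, Smurf2, Skil and the receptors Bmpr1a, Bmpr1b, Bmpr2, Acvr2a and Tgfbr1 to the left.

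Of the 11 receptors and co-receptors, 5 were called lower and 0 higher without correction, and 0 in either direction with it. The 5 are 45.5% of the receptors, beside 21.5% of all tested genes called lower uncorrected. Their transcripts have 39.9% to 42.2% GC, and 53.4% of all genes under 46% GC were called lower. Of those 5, Bmpr2 and Acvr2a had positive log2 fold changes in the corrected fit, and Bmpr1a, Bmpr1b and Tgfbr1 negative ones. Bmpr1a, a type I BMP receptor, had 27.7 and 22.1 CPM in Npas3-/-, against 121 and 333 CPM in WT. The 2 WT libraries differed by 2.75-fold between themselves, and both were above Npas3-/- (log2 fold change -3.19, SE 0.52, adjusted p = 0.0158). Corrected, it had 54.5 and 59.3 CPM in Npas3-/- and 73.8 and 103 CPM in WT (log2 fold change -0.64, SE 0.20, adjusted p = 0.104). Without WT replicate 1 its corrected value passed the threshold (log2 fold change -0.85, adjusted p = 0.0421). Bmpr1b, the other BMP type I receptor of this name, had 2.004 and 2.013 CPM in Npas3-/-, against 9.39 and 15.3 CPM in WT (log2 fold change -2.62, SE 0.38, adjusted p = 0.0138). Its corrected log2 fold change was -0.35 (adjusted p = 0.460). Bmpr2, the type II BMP receptor, had 22.6 and 13.7 CPM in Npas3-/-, against 38.0 and 165 CPM in WT. Here WT replicate 2 was 4.33 times WT replicate 1, more than the gap between WT replicate 1 and the Npas3-/- libraries (log2 fold change -2.48, SE 0.71, adjusted p = 0.0476; corrected 0.55, adjusted p = 0.288).

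Acvr2a, a type II receptor for activins and BMPs, had 2.58 and 2.05 CPM in Npas3-/-, against 7.43 and 19.7 CPM in WT (log2 fold change -2.55, SE 0.55, adjusted p = 0.0255). Its corrected levels overlapped, at 5.19 and 5.68 CPM in Npas3-/- and 4.75 and 5.55 CPM in WT (log2 fold change 0.08, adjusted p = 0.874). Tgfbr1, the type I TGF-beta receptor, had 2.35 and 1.69 CPM in Npas3-/-, against 12.8 and 18.6 CPM in WT (log2 fold change -2.96, SE 0.38, adjusted p = 0.0130). Corrected, its log2 fold change was -0.57 (adjusted p = 0.246). Its partner Tgfbr2, the type II TGF-beta receptor, had 56.8 and 52.6 CPM in Npas3-/- and 57.4 and 53.5 CPM in WT, overlapping levels uncorrected (adjusted p = 0.947). Corrected, Tgfbr2 had 65.0 and 81.6 CPM in Npas3-/- and 45.9 and 37.7 CPM in WT, a log2 fold change of 0.81 that missed the threshold (adjusted p = 0.0586). Acvr1, Acvr1b, Acvr2b, the co-receptor Tgfbr3 and endoglin (Eng) were called in neither fit. Endoglin is abundant in endothelial cells, whose 10 listed markers summed to 20.7 and 15.2 CPM in Npas3-/- and 16.9 and 14.9 CPM in WT, with Cdh5, Tek and Erg at 0 in both Npas3-/- libraries and Cldn5 at 0 in both WT libraries.

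The signalling Smads were called lower for 3 of 6 genes without correction and for 0 with it. All tested genes were called lower for 21.5% uncorrected and 3.80% corrected. Smad3, a TGF-beta Smad and the most abundant of the 6 per length, had 216 and 178 CPM in Npas3-/- and 185 and 214 CPM in WT. Its log2 fold change was -0.02 (SE 0.21) uncorrected and -0.01 (SE 0.16) corrected, with overlapping libraries in both. Smad5, a BMP Smad, had 23.4 and 19.5 CPM in Npas3-/-, against 109 and 86.0 CPM in WT (log2 fold change -2.18, SE 0.23, adjusted p = 0.0130). Corrected, it had 39.2 and 44.3 CPM in Npas3-/- and 66.6 and 37.1 CPM in WT, which overlapped (log2 fold change -0.31, adjusted p = 0.529). Smad9, also a BMP Smad, had 7.97 and 5.30 CPM in Npas3-/-, against 20.2 and 18.3 CPM in WT (log2 fold change -1.54, SE 0.32, adjusted p = 0.0244; corrected -0.67, adjusted p = 0.130). Smad2, the other TGF-beta Smad, had 14.9 and 18.5 CPM in Npas3-/-, against 30.2 and 50.1 CPM in WT (log2 fold change -1.27, SE 0.32, adjusted p = 0.0366). Its direction turned with the correction, to 24.6 and 43.4 CPM in Npas3-/- and 18.4 and 21.3 CPM in WT (log2 fold change 0.78, adjusted p = 0.155). Smad1, and the shared Smad4, had log2 fold changes of -0.30 (adjusted p = 0.316) and -0.45 (adjusted p = 0.124), and of -0.33 (adjusted p = 0.270) and -0.22 (adjusted p = 0.389) corrected.

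Among the inhibitors, 2 of 7 were called higher and 2 lower without correction, and 1 each way with it. These are 28.6% each way, beside 11.6% and 21.5% of all tested genes, and 14.3% each way corrected, beside 4.56% and 3.80%. Bambi (ENSMUSG00000024232.1) encodes a pseudoreceptor that lacks a kinase domain and dampens signalling by BMP, activin and TGF-beta receptors. It had 140 and 161 CPM in Npas3-/-, against 75.2 and 49.3 CPM in WT. The genotypes did not overlap (log2 fold change 1.27, SE 0.27, adjusted p = 0.0244). The Bambi transcript has 44.0% GC, a composition at which more genes were called lower than higher, and its corrected levels lay further apart. They were 237 and 343 CPM in Npas3-/-, against 47.2 and 21.8 CPM in WT (log2 fold change 3.07, SE 0.42, adjusted p = 0.0241). The correction also moved libraries of the same genotype further apart, and the SE rose from 0.27 to 0.42. The corrected value ranged from 2.59 to 3.74 when each library was left out in turn. Smad6, the inhibitory Smad of the BMP branch, had 61.6 and 88.6 CPM in Npas3-/-, against 44.0 and 29.3 CPM in WT (log2 fold change 1.04, SE 0.30, adjusted p = 0.0499; corrected 0.30, adjusted p = 0.347). Smad7, which inhibits both branches, had 19.5 and 22.6 CPM in Npas3-/- and 29.6 and 22.4 CPM in WT, which overlapped (log2 fold change -0.30, adjusted p = 0.401). Corrected, Smad7 had 17.2 and 19.7 CPM in Npas3-/- and 31.7 and 27.3 CPM in WT, without overlap but not past the threshold (log2 fold change -0.68, adjusted p = 0.0872).

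Smurf2 (ENSMUSG00000018363.16, chromosome 11, 106820066 to 106920715, minus strand) encodes a ubiquitin ligase that targets Smads and receptors. It had 15.8 and 12.1 CPM in Npas3-/-, against 57.8 and 69.9 CPM in WT, so that the Npas3-/- level was 21.8% of WT (log2 fold change -2.20, SE 0.26, adjusted p = 0.0130). Corrected, it had 21.3 and 20.3 CPM in Npas3-/-, against 40.8 and 43.5 CPM in WT, with close replicates (log2 fold change -1.02, SE 0.16, adjusted p = 0.0272). Its paralog Smurf1 was called in neither fit, at 156 and 119 CPM in Npas3-/- and 131 and 72.1 CPM in WT (log2 fold change 0.44, adjusted p = 0.344; corrected 0.33, adjusted p = 0.475). Skil encodes SnoN, a Smad corepressor. It had 2.98 and 2.82 CPM in Npas3-/-, against 19.2 and 32.2 CPM in WT (log2 fold change -3.15, SE 0.37, adjusted p = 0.0130; corrected -0.58, adjusted p = 0.200). Its paralog Ski, the most abundant inhibitor per length, had 361 and 332 CPM in Npas3-/- and 345 and 294 CPM in WT, which overlapped (log2 fold change 0.12, SE 0.20, adjusted p = 0.683; corrected 0.02, adjusted p = 0.953).

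The 4 Id genes did not move together. Id3 (ENSMUSG00000007872.3, chromosome 4, 136143497 to 136145755, plus strand) had the highest level of all 45 genes per length, at 894 CPM per kb in Npas3-/- and 381 CPM per kb in WT. It had 910 and 1376 CPM in Npas3-/-, against 589 and 386 CPM in WT (log2 fold change 1.23, SE 0.33, adjusted p = 0.0406). Corrected, the genotypes overlapped, at 733 and 863 CPM in Npas3-/- and 745 and 604 CPM in WT (log2 fold change 0.24, adjusted p = 0.428). Id1 was called higher too, with 359 and 438 CPM in Npas3-/-, against 242 and 176 CPM in WT (log2 fold change 0.93, SE 0.25, adjusted p = 0.0410). Its corrected log2 fold change was -0.02 (adjusted p = 0.946). Id2 (ENSMUSG00000020644.9, chromosome 12, 25093799 to 25097140, minus strand) had 25.4 and 41.4 CPM in Npas3-/-, against 141 and 163 CPM in WT. The Npas3-/- level was 22.0% of the WT level (log2 fold change -2.18, SE 0.30, adjusted p = 0.0131). Corrected, Id2 had 34.6 and 56.7 CPM in Npas3-/- and 109 and 112 CPM in WT, still without overlap (log2 fold change -1.28, SE 0.25, adjusted p = 0.0407). With the correction fitted on all tested genes instead, Id2 missed the threshold (log2 fold change -1.13, adjusted p = 0.0568).

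Id4 (ENSMUSG00000021379.2, chromosome 13, 48261228 to 48266026, plus strand) had 73.7 and 92.1 CPM in Npas3-/- and 90.2 CPM in each WT library. The libraries overlapped and the log2 fold change was -0.12 (SE 0.20, adjusted p = 0.672). On the corrected scale it had 131 and 192 CPM in Npas3-/-, against 58.6 and 37.5 CPM in WT, and was called higher (log2 fold change 1.75, SE 0.29, adjusted p = 0.0296). The correction thus also moved libraries of the same genotype apart, and the SE rose from 0.20 to 0.29. Its transcript has 42.6% GC and overlaps the exons of A330033J07Rik and Gm49291 on the other strand. For Id4 the fits thus gave opposite directions, and only the corrected value passed the threshold.

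**Figure D4:**
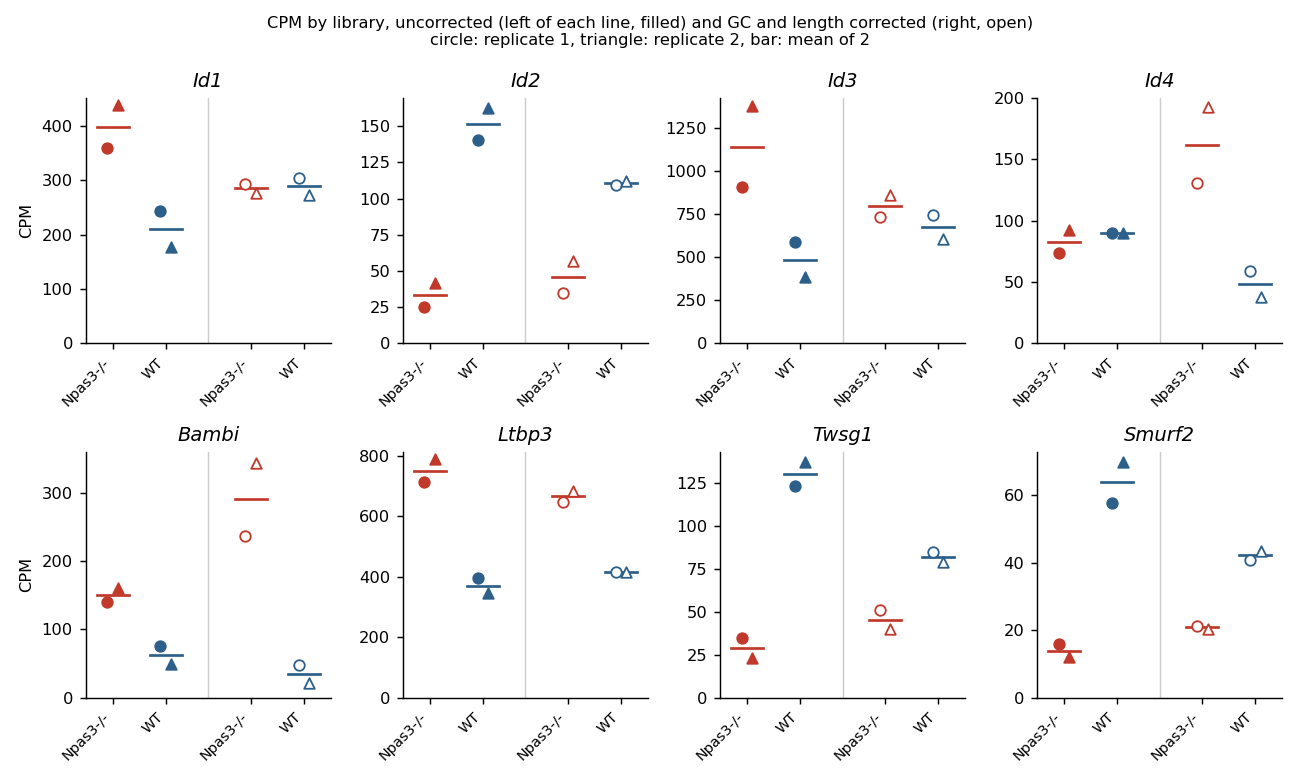
CPM (y axis, from 0) in each library of the 4 Id genes and of the 4 other genes called in the same direction by both fits. Filled symbols left of the grey line are uncorrected, open symbols right of it are corrected for GC content and length, circles are replicate 1, triangles replicate 2 and bars the mean of 2. Id1 and Id3 overlap between genotypes after correction, Id2 stays at 34.6 and 56.7 CPM in Npas3-/-, below 109 and 112 CPM in WT, and Id4 separates only after correction.

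The make-up of each family differed with genotype on the uncorrected scale of CPM per kb. Id3 made up 69.7% ± 2.98 of the summed Id level in Npas3-/- and 57.1% ± 4.51 in WT (SD, n = 2 each, here and below). Id2 made up 1.31% ± 0.13 in Npas3-/- and 12.1% ± 3.83 in WT, and Id1 27.3% ± 2.95 and 27.2% ± 0.12. After correction the Id2 share was 2.001% and 2.90% in the Npas3-/- libraries and 6.06% and 7.37% in the WT libraries. Smurf2 made up 9.40% ± 0.03 of the Smurf sum in Npas3-/- and 40.5% ± 13.2 in WT. Corrected, its share was 13.2% and 14.8% in Npas3-/- and 24.1% and 36.6% in WT, still without overlap. Among type I receptors Bmpr1a held 13.5% ± 1.09 in Npas3-/- and 52.1% ± 14.8 in WT, while Acvr1 held 48.0% ± 2.11 in Npas3-/- and 25.9% ± 10.2 in WT. Corrected, these gaps were smaller, with Bmpr1a at 23.8% and 25.6% in Npas3-/- and 33.2% and 38.1% in WT, and Acvr1 at 43.3% and 43.8% in Npas3-/- and 37.7% and 32.3% in WT. Smad5 held 24.2% ± 0.34 of the BMP Smads in Npas3-/- and 50.1% ± 5.15 in WT, and Smad6 held 83.5% ± 2.09 of the inhibitory Smads in Npas3-/- and 66.7% ± 1.96 in WT. Corrected, the Smad5 share overlapped between genotypes, at 35.1% and 40.0% in Npas3-/- and 43.5% and 28.0% in WT. The Smad6 share did not, at 81.3% and 82.1% in Npas3-/- and 70.0% and 69.0% in WT. With 2 libraries a genotype no exact permutation test of these shares can pass 0.05, so they are descriptions.

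**Figure D5:**
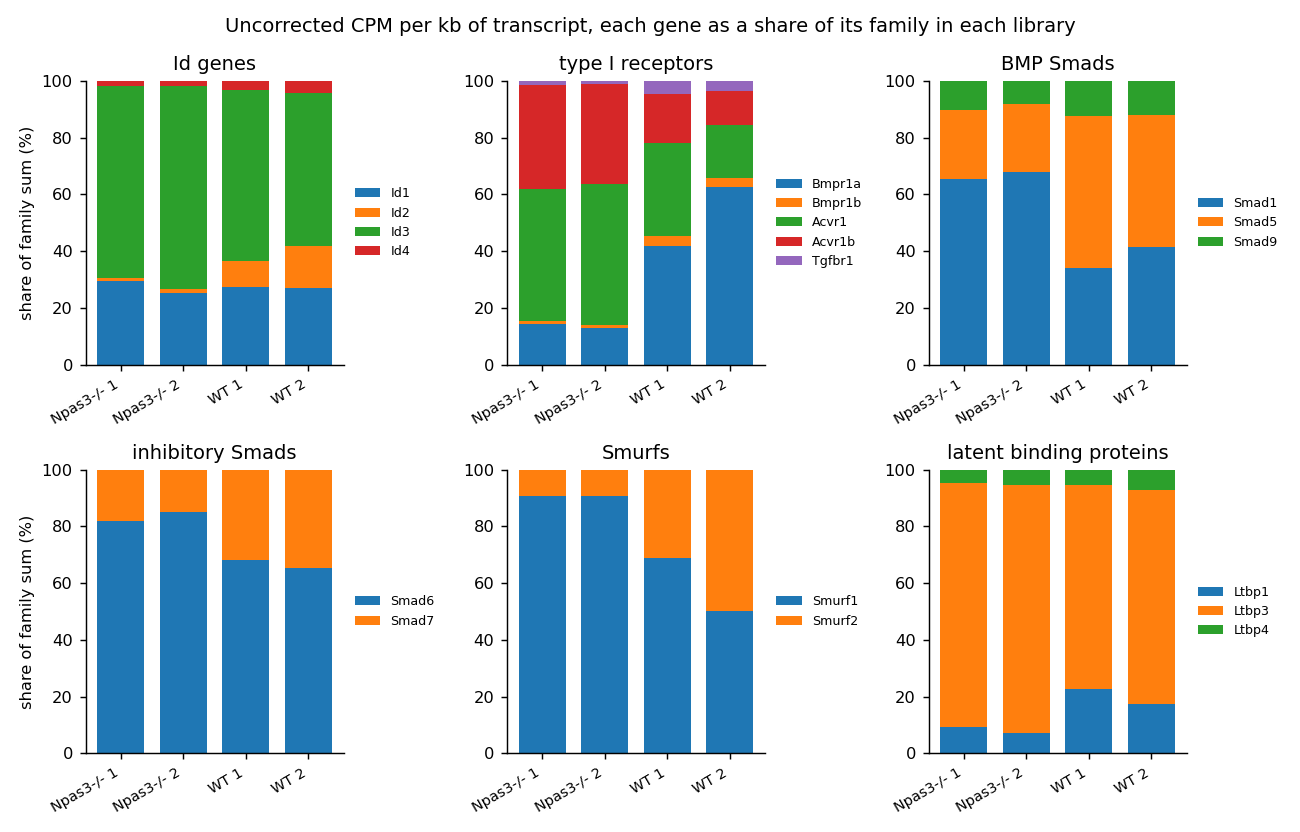
Share of each gene in the summed uncorrected level of its family, in percent of CPM per kb of transcript (y axis), for each of the 4 libraries. The Id2, Bmpr1a, Smad5, Smad7 and Smurf2 segments are narrower in both Npas3-/- libraries than in both WT libraries, and the Id3, Smad1, Smurf1 and Ltbp3 segments are wider.

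Other genes of both pathways were taken from a list of 113, of which 98 were tested. Without correction 15 were higher and 30 lower in Npas3-/-, with correction 7 were higher and 10 lower, and 5 (Gdf10, Gdf11, Ltbp2, Ccn2 and Gfap) and 10 were called in the same direction by both. These are 15.3% and 30.6% of the tested genes of the list uncorrected, 7.14% and 10.2% corrected, and 5.10% and 10.2% in both fits. The shares of all tested genes were 11.6% and 21.5%, 4.56% and 3.80%, and 1.89% and 3.41%. The list's median log2 fold change was -0.08 uncorrected and -0.18 corrected, against -0.07 and -0.03 for all tested genes. Named by the smallest p-values, Gfap, the astrocyte filament gene that BMPs induce, had 1871 and 1900 CPM in Npas3-/-, against 613 and 656 CPM in WT (log2 fold change 1.57, SE 0.21, adjusted p = 0.0130; corrected 0.92, adjusted p = 0.0383). Gdf10, a ligand close to BMP3, had 12.6 and 11.5 CPM in Npas3-/-, against 2.22 and 2.76 CPM in WT (log2 fold change 2.28, SE 0.32, adjusted p = 0.0135; corrected 2.48, adjusted p = 0.0231). Ltbp2, a matrix protein related to the latent binding proteins, had 179 and 163 CPM in Npas3-/-, against 77.1 and 68.9 CPM in WT, and was higher in both fits (log2 fold change 1.23 and 1.15, adjusted p = 0.0151 and 0.0231). Ccn2, a TGF-beta target that encodes connective tissue growth factor, had 584 and 604 CPM in Npas3-/-, against 340 and 278 CPM in WT (log2 fold change 0.94, adjusted p = 0.0278; corrected 1.01, adjusted p = 0.0262).

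Among the lower genes of that list, Crim1, which encodes a membrane protein that binds BMPs, had 69.8 and 63.5 CPM in Npas3-/-, against 202 and 189 CPM in WT. It was called in both fits (log2 fold change -1.55, adjusted p = 0.0130, and -1.03, adjusted p = 0.0264, corrected). Crebbp, a histone acetyltransferase and Smad coactivator, had 25.1 and 14.4 CPM in Npas3-/-, against 69.6 and 91.2 CPM in WT (log2 fold change -2.03, adjusted p = 0.0166; corrected -1.44, adjusted p = 0.0236). Dlx2, a homeobox gene, had 5.75 and 7.09 CPM in Npas3-/-, against 17.1 and 14.2 CPM in WT (log2 fold change -1.29, adjusted p = 0.0300; corrected -2.11, adjusted p = 0.0231). Rnf11 and Ahnak were called without correction only, with log2 fold changes of -2.20 and -1.93 (adjusted p = 0.0130 for each), and -0.27 (adjusted p = 0.385) and -0.47 (adjusted p = 0.140) corrected. Of 27 tested intracellular modulators, 2 were higher (Wwp2 and Stub1) and 16 lower uncorrected, and 2 higher (Ppm1a and Nedd4l) and 6 lower corrected. The 16 lower are 59.3% of the modulators, beside 21.5% of all tested genes. The median GC content of the 27 genes was 46.8%. Of all genes under 46% GC 53.4% were called lower, and of those with 46 to 53% GC, where this median lies, 17.7%. Among the 16, Zfyve9, Tab2, Crebbp, Ep300, Lemd3 and Rnf111 had 46 to 53% GC and the others less. The 6 lower after correction are 22.2%, beside 3.80% of all tested genes. The 6 lower genes were Zfyve9, Nedd4, Tab2, Crebbp, Ep300 and Rnf111, which the uncorrected fit called lower as well. Genes of this list given without values were named after their values were seen.

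Markers of other cells were present at differing levels. The 10 mural markers, which include the TGF-beta-responsive contractile genes Acta2, Tagln and Cnn1, summed to 2318 and 2503 CPM in Npas3-/- and to 2148 and 638 CPM in WT, so that WT replicate 2 stood apart. Oligodendrocyte-lineage markers, led by Olig1, summed to 1428 and 1743 CPM in Npas3-/- and 1382 and 1274 CPM in WT, with Mog at 0 in all 4 libraries. Fibroblast and meningeal markers summed to between 294 and 398 CPM. Neuronal markers summed to 202 and 201 CPM in Npas3-/- and 309 and 166 CPM in WT, which overlapped. Rbfox3, Snap25 and Dcx had 0 counts in both Npas3-/- libraries and at most 35 counts in a WT library. Tubb3 went the other way, at 65.2 and 79.6 CPM in Npas3-/- and 45.9 and 21.9 CPM in WT. Tubb3, Slc17a7 and Nefl had positive uncorrected log2 fold changes and were called in neither fit. Of these lists 3 fibroblast markers (Col3a1, Aldh1a2 and Dcn) and 2 neuronal markers (Map2 and Syt1) were called lower uncorrected, and Col3a1, Aldh1a2 and Map2 in both fits. Col3a1 had 5.87 and 6.86 CPM in Npas3-/-, against 18.9 and 29.7 CPM in WT, and Map2 had 4.43 and 1.82 CPM in Npas3-/-, against 36.4 and 45.03 CPM in WT. Rgs5 of the mural list was lower in both fits, Tek and Erg of the endothelial list uncorrected only, and Olig2 of the oligodendrocyte list corrected only. Microglial markers summed to 6.22 and 7.12 CPM in Npas3-/- and 3.998 and 2.19 CPM in WT. The part of these cells in the values above was not tested, and in bulk samples fewer cells of a type and less RNA per cell cannot be told apart.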

How the data were processed

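RNA of cultured astrocytes was sequenced in 2 Npas3-/- and 2 WT samples. The authors deposited raw counts per gene for the 4 samples; the submitters' processing notes name mm10 as the build and list featureCounts, HISAT2 2.1.0 and Trimmomatic 0.3.8. Annotation release, strand setting and shared-read handling were not given in the sources used here, so the 13 members that share exons with another gene are uncertain. Total counts ran from 82965565 to 86932708.

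Identifiers were matched without version to GENCODE M21 (53274 of 53379 found, 50604 with the same version), and GC content and length came from the longest protein-coding transcript, or else the longest of any type. Genotypes were compared in R 4.3.3 by the quasi-likelihood test of edgeR 4.0.16 with TMM, filterByExpr at a minimum count of 10, 2 residual degrees of freedom and Benjamini-Hochberg adjustment over all tested genes at 0.05. SE is the log2 fold change over the root of F. The correction entered natural splines (6 degrees of freedom each) of GC content and log2 length as offsets, fitted per library on genes with a mean of at least 1 CPM. Tested on simulated data with a GC trend, the uncorrected fit called most unchanged genes and the corrected fit few. Without a trend both called few. With the trend, the corrected fit called 10 of 50 genes changed 1.5-fold and 41 of 50 changed 2-fold. The simulated trend was linear in GC content and had no length part, so it cannot show how well the correction suits these libraries. Corrected CPM are CPM divided by the fitted curve.

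The members, the wider list, the marker lists, the correction and the rule for named genes were chosen with earlier results of these data known. The rule gives values in every sample for members past the threshold in either fit and for the highest-level member of each role, and for the wider list the 3 smallest p-values in each direction and fit. Where a library was left out, the lone library of its genotype was assumed to vary like those of the other. Alternatives were DESeq2 1.42.0, its size factors, limma-voom (limma 3.58.1), other filters, a block for the replicate number, each library left out and, added after the data were seen, a crossed block and splines fitted on all tested genes. Promoter windows came from RefSeq (GRCm38.p6).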

Additional observations from a re-analysis of the deposited data

How the results depend on the processing

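Counts are of members called higher and lower in Npas3-/-, then of the wider list, which were 7 and 13, then 15 and 30, without the correction. DESeq2, its size factors, limma-voom and a minimum mean of 5 CPM moved none of these by more than 1.5 times (7 or 8 members higher and 12 to 14 lower). Without a filter on low counts 3 members were higher. The correction gave 3 and 4, then 7 and 10. Over all genes, the share of calls that were higher was 35.1% uncorrected, 54.5% corrected and 65.0% with splines fitted on all tested genes, which shifted the median log2 fold change of all genes from -0.07 to 0.09 and left 1 member lower. The labels do not say whether a replicate number marks a shared batch, and with 2 libraries a genotype the correlations of deviations for same-numbered and crossed libraries (r = -0.16 and 0.16) only mirror each other. With the number as a replicate block the counts were 0 and 9, then 3 and 17, and 0 and 0 corrected, where 2560 genes were called in all uncorrected and 0 corrected, with 15 members at an unadjusted p below 0.05 in the blocked corrected fit. With the crossed block they were 8 and 13, then 23 and 31, and 3 and 4 corrected. Leaving out each library in turn gave 0 to 7 members higher, 0 to 14 lower, and 0 to 16 and 0 to 27 for the wider list, and 0 to 3 and 0 to 2 corrected.

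Of the 45 members, 33 had the same sign in both fits. Without the correction Nog, Tgfbr2, Smad3, Ski and Id4, all called in no uncorrected fit, changed sign when a library was left out (Id4 to 0.03). Of members called in either fit, those whose sign turned in a corrected fit were as follows. Acvr2a was 0.076 corrected, 0.080 blocked, 0.079 crossed, 0.11 with splines on all genes, and 0.020, 0.15 and 0.17 without Npas3-/- replicate 2, Npas3-/- replicate 1 and WT replicate 2. Bmpr2 was 0.55, 0.62 blocked, 0.62 crossed, 0.49 with splines on all genes and 0.17 to 1.06 with a library left out (0.598 and 0.600 without Npas3-/- replicates 2 and 1). Smad2 was 0.78, 0.72 blocked, 0.72 crossed, 0.77 with splines on all genes and 0.30 to 1.12 with a library left out (0.67 and 0.86 without WT replicates 1 and 2). Id1 was -0.019 corrected, -0.017 blocked, -0.017 crossed, and -0.095 and -0.036 without WT replicate 2 and Npas3-/- replicate 1. Id4 was 1.75, 1.76 crossed, 1.76 with splines on all genes and 2.12 without WT replicate 1. Without a single library, Inhba reached 0.12 (Npas3-/- replicate 1), Nbl1 -0.019 (WT replicate 2), Smad5 0.17 (WT replicate 1) and Tgfb1 -0.035 (WT replicate 1). The cause of these differences was not tested. Depth limits the members under 1 CPM, which rest on few counts.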

Other observations

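Summed per length, the 3 TGF-beta ligands had 74.2 and 68.6 CPM per kb in the Npas3-/- libraries, against 54.7 and 36.8 CPM per kb in WT, and on the corrected scale 69.9 and 64.4 CPM per kb against 54.4 and 39.2 CPM per kb in WT. Tgfb3 made up 76.4% ± 1.83 of this sum in Npas3-/- and 67.0% ± 9.31 in WT (SD, n = 2 each), and corrected its shares overlapped, at 74.9% and 73.0% in Npas3-/- and 77.6% and 65.4% in WT. The 4 BMP ligands summed to 15.6 and 16.7 CPM per kb in Npas3-/-, against 23.8 and 15.7 CPM per kb in WT, of which Bmp6 made up 64.9% ± 2.25 in Npas3-/- and 75.6% ± 5.10 in WT. Corrected, the BMP ligands summed to 13.5 CPM per kb in each Npas3-/- library, against 26.4 and 20.3 CPM per kb in WT. The 3 latent TGF-beta binding proteins summed to 160 and 174 CPM per kb in Npas3-/-, against 105 and 88.1 CPM per kb in WT. Bmp5, a BMP ligand of the wider list chosen after its values were seen, had 0 counts in both Npas3-/- libraries, against 40 and 33 counts in WT. It was called lower uncorrected (adjusted p = 0.0271, edgeR's quasi-likelihood test) and not corrected (adjusted p = 0.100). The sums and shares are descriptions without a test.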
